A study of Mus musculus with 4 samples.

Results

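The genes described here encode 6 families of splicing factors, and their mRNA levels were compared between group 2 innate lymphoid cells (ILC2s) of the small intestine and of fat. Members were chosen by gene symbol alone, with no condition on their level. The symbols were those of SR proteins (Srsf followed by a number), heterogeneous nuclear ribonucleoproteins (hnRNPs), SF3a and SF3b subunits, proteins with Snrp symbols, U2AF subunits and PRPF factors. Of the 22083 genes in the deposited table, 68 matched, namely 11 SR protein, 20 hnRNP, 9 SF3a or SF3b, 12 Snrp, 3 U2AF and 13 PRPF genes. Group 2 innate lymphoid cells are lymphocytes that reside in tissues, carry no antigen receptor and secrete type 2 cytokines such as IL-5 and IL-13. All 4 libraries came from C57BL/6 mice of wild-type genotype at 9 weeks of age. The ILC2s were isolated on a cell sorter. The 2 SI-ILC2 libraries came from lamina propria of the small intestine and the 2 WAT-ILC2 libraries from mesenteric white adipose tissue. No treatment is named in the labels. Neither a gate nor the number of mice behind a library is given there, so a p-value here measures the spread between libraries, which may be technical. Tissue of origin and the isolation from that tissue cannot be told apart.

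Splicing removes introns from pre-mRNA in the spliceosome, which is built from small nuclear ribonucleoproteins (snRNPs). Each of the U1, U2, U4 and U5 snRNPs carries a ring of Sm proteins. U1 recognises the 5′ splice site, U2AF binds the 3′ splice site, and U2 with its SF3a and SF3b complexes pairs with the branch point. PRPF factors act mainly in the U4/U6.U5 tri-snRNP and in the activated spliceosome. SR proteins bind exons and mostly promote their inclusion, while hnRNPs coat nascent RNA and often repress exons. In lymphocytes such regulators are known for isoform choice in the phosphatase CD45. Levels here sum all transcripts of a gene, and isoforms were not analysed here.

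Levels are given in RPKM, reads scaled to gene length and library depth, so that genes can be compared per length. Values within a tissue are listed for replicate 1 and then replicate 2. Differences are on the log2(RPKM + 1) scale as SI-ILC2 minus WAT-ILC2 ± SE, with n = 2 libraries per tissue, and this scale understates the change of low genes. A gene was tested if it reached an RPKM of 1 in at least 2 libraries, which 8230 genes did. It was called at an adjusted p below 0.05 in limma, a linear model that shares the spread between genes. In bulk libraries, a lower share of cells that express a gene cannot be told apart from less RNA per cell.

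Column sums ran from 136705 to 158718 RPKM, and the step between low values put the depth at about 55600000 to 76200000 reads per library. The 14 ILC2 markers summed to 1541 and 1500 RPKM in SI-ILC2s and to 1297 and 1195 RPKM in WAT-ILC2s, and none of them was listed at 0. The markers of other cells were lower in sum. The 5 red cell genes summed to 41.5 and 13.2 RPKM in SI-ILC2s and to 139.8 and 88.9 RPKM in WAT-ILC2s. All 5 were called higher in WAT-ILC2s, against 29.6% of all tested genes. Of these, Alas2 reached the filter only through the WAT-ILC2 libraries, so the filter itself favours its call. The 6 B and plasma cell markers summed to 24.9 and 18.9 RPKM against 3.07 and 2.61 RPKM in WAT-ILC2s. For 6 T cell markers the sums were 8.53 and 6.82 against 23.2 and 12.4 RPKM, and for 8 fibroblast markers 1.24 and 1.58 against 10.3 and 4.95 RPKM. The 7 adipocyte markers stayed between 0.348 and 5.02 RPKM and the 8 macrophage and dendritic cell markers between 2.04 and 8.78 RPKM. The 6 endothelial markers summed to 4.54 to 6.62 RPKM, and the 8 intestinal epithelial markers to 5.63 and 13.2 against 9.27 and 8.59 RPKM, with Krt8 at 0.240 and 4.32 RPKM in the SI-ILC2 libraries. The most abundant single genes of these lists included Hba-a2 at 45.0 RPKM and Cd3g at 21.2 RPKM in WAT-ILC2 replicate 1 and Cd79b at 17.3 RPKM in SI-ILC2 replicate 1. Their part in the differences between the tissues below was not tested.

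Taken as 1 set, the splicing genes took 1.299% to 1.439% of the column sum, with both WAT-ILC2 libraries above both SI-ILC2 libraries. The genes summed to 2061.1 and 2021.8 RPKM in SI-ILC2s, which is 1.299% and 1.336% of the column sum. In WAT-ILC2s they summed to 2031.9 and 1966.8 RPKM, or 1.433% and 1.439%. The hnRNPs made up the larger part of this in every library, with 1217.4 to 1265.1 RPKM. SR proteins followed with 361.46 to 445.07 RPKM, while the 3 U2AF genes together reached 8.2 to 19.38 RPKM. No member was listed at 0 in any library. Srsf12, Snrpn and Prpf19 stayed below 1 RPKM everywhere and were not tested. Srsf12 lay between 0.0509 and 0.2084 RPKM, Snrpn between 0.1197 and 0.2412 RPKM and Prpf19 between 0.4449 and 0.7163 RPKM.

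**Figure D1:**
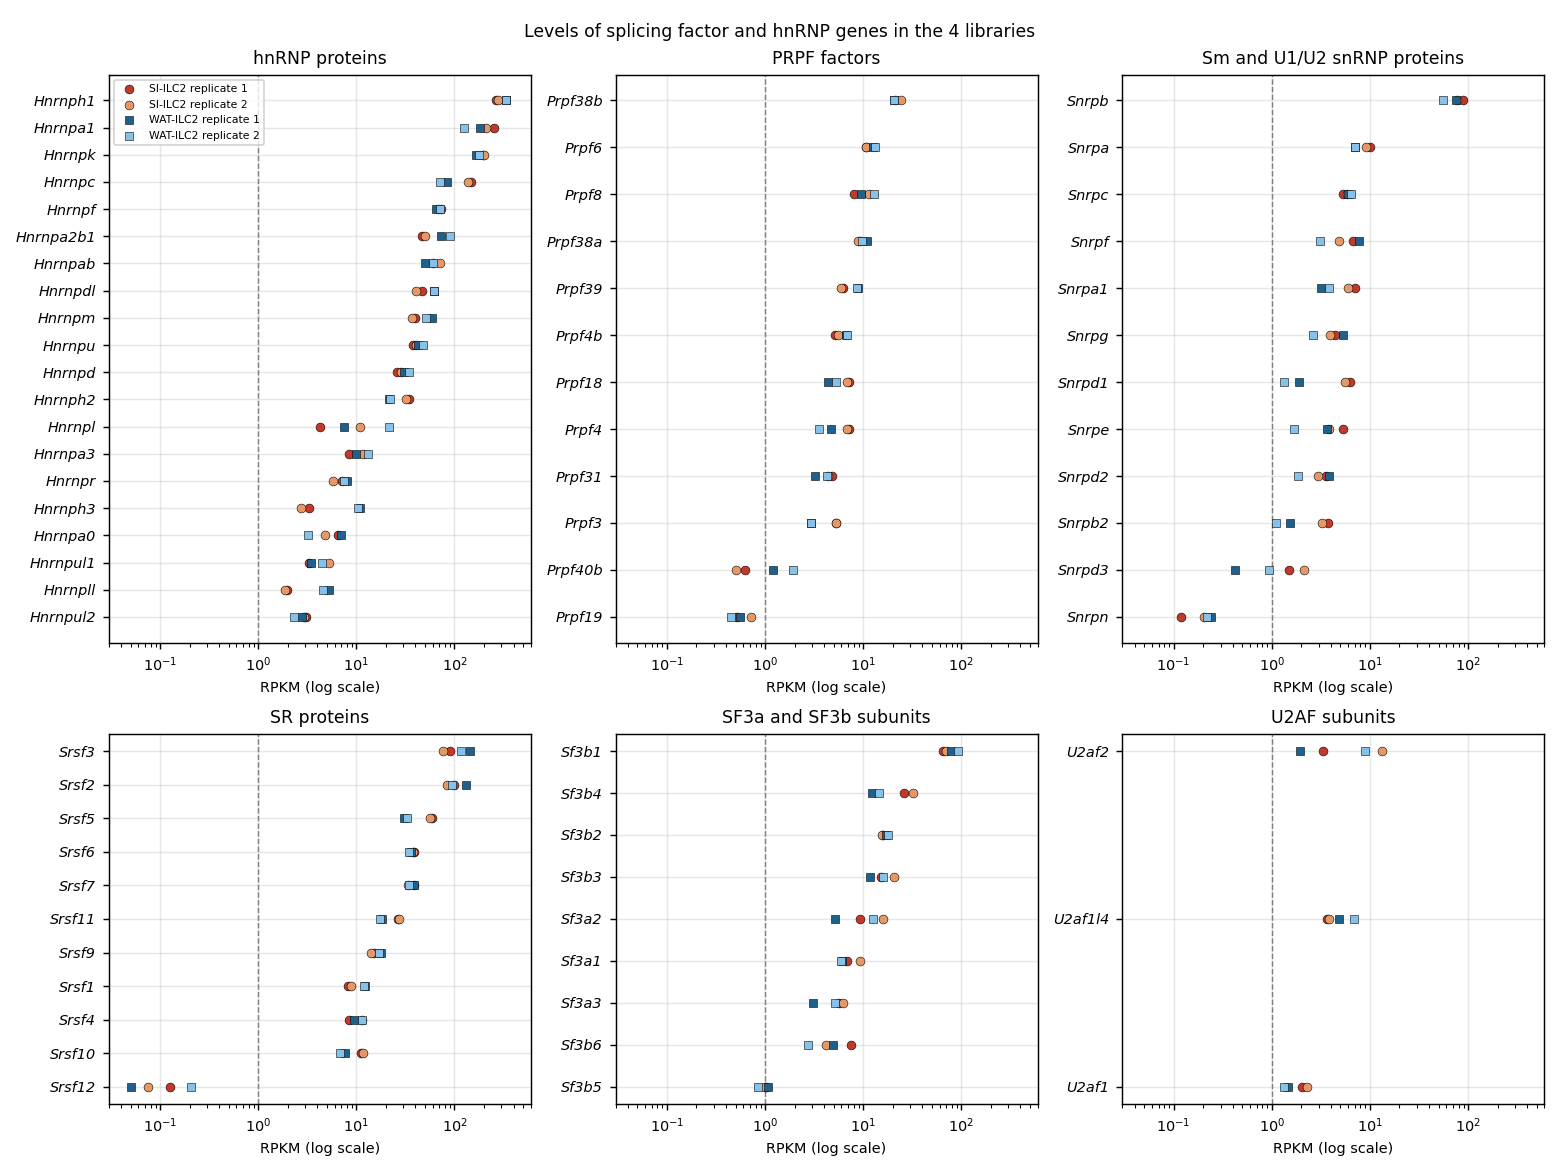
RPKM of the members on a log axis, in 6 panels by family, with circles for the SI-ILC2 libraries and squares for the WAT-ILC2 libraries. The dashed line marks 1 RPKM; Hnrnph1 is the most abundant member and Srsf12 the least abundant.

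Of the 65 tested members, 14 were called higher in SI-ILC2s while 9 were called higher in WAT-ILC2s. The 23 calls are 35.4% of the tested members, against 47.5% of all tested genes. By direction they are 21.5% and 13.8% of the members, against 17.9% of all tested genes called higher in SI-ILC2s and 29.6% called higher in WAT-ILC2s. The median difference was 0.12 over the members and -0.15 over all tested genes. In 27 members the lower SI-ILC2 library exceeded the higher WAT-ILC2 library, in 21 the reverse held and in 17 the tissues overlapped. Over all tested genes, 29.8% had both SI-ILC2 libraries above and 45.9% had both WAT-ILC2 libraries above.

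These counts moved with the library set and the scaling. Without SI-ILC2 replicate 1 there were 4 calls toward SI-ILC2s and 3 toward WAT-ILC2s, and without SI-ILC2 replicate 2 there were 7 and 4. Without WAT-ILC2 replicate 1 there were 20 and 5, and without WAT-ILC2 replicate 2 there were 16 and 5. Scaling the libraries by their median ratio, which moved the median of all tested genes from -0.15 to 0.0, gave 19 and 4. Over all tested genes this scaling gave 1956 and 1817 calls, against 1470 and 2436 in the main fit. All-gene calls also moved in each fit without 1 library, where the all-gene median ran from -0.19 to -0.08. Shifts in the counts, here and in the families below, are thus not shown to be particular to the members. No called member changed direction in any of these fits. Calls held in all 4 fits without 1 library for 6 members, namely Snrpd1, Sf3b4, Snrpb2 and Srsf5 toward SI-ILC2s and Hnrnph3 and Hnrnpll toward WAT-ILC2s. In 15 members the call was lost without at least 1 library. The 2 remaining calls, Snrpd3 and Prpf40b, reached the filter only through the tissue where they are high, so they could not be tested without a library of that tissue and the filter itself favours their calls.

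**Figure D2:**
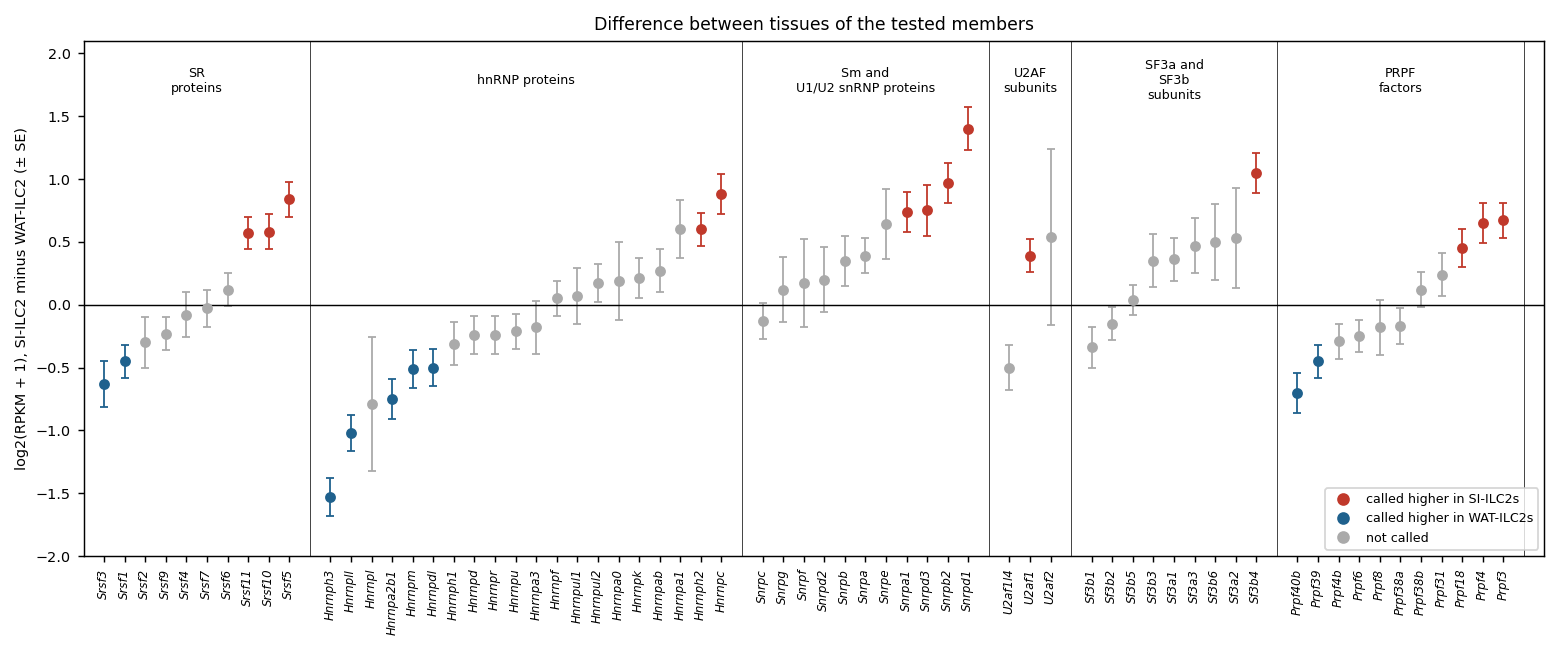
Difference in log2(RPKM + 1), SI-ILC2 minus WAT-ILC2, for the tested members by family, with bars for the SE from limma and colour for the call. The 14 members called higher in SI-ILC2s run from U2af1 at 0.39 to Snrpd1 at 1.40, and the 9 called higher in WAT-ILC2s from Hnrnph3 at -1.53 to Prpf39 and Srsf1 at -0.45.

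Promoters are shown for some called members, to place these genes on the genome and to show the elements at their start sites. Sequences came from RefSeq on GRCm38.p6, which held promoters for 59 members. The 100 bases before the annotated start are given for 3 members called toward SI-ILC2s and 2 called toward WAT-ILC2s, the ones with the largest differences among promoters that matched and overlap exons by at most 30 bases. Members with larger differences, such as Hnrnph3, Hnrnpll and Sf3b4, are thus not among them. The capitals mark CTTCCGG or CCGGAAG (an ETS factor core), CCAAT or ATTGG (the CCAAT box) and CACGTG (the E-box).
Snrpb2, chr2:143062969-143063068, plus strand, higher in SI-ILC2s: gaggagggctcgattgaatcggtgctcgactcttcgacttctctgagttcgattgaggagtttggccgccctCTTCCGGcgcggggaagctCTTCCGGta
Hnrnpc, chr14:52104022-52104121, minus strand, higher in SI-ILC2s: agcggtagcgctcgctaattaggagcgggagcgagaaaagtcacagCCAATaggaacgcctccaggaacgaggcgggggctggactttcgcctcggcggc
Srsf5, chr12:80945399-80945498, plus strand, higher in SI-ILC2s: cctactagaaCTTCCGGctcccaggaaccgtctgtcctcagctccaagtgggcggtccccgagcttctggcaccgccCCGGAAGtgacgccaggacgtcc
Hnrnpa2b1, chr6:51469895-51469994, minus strand, higher in WAT-ILC2s: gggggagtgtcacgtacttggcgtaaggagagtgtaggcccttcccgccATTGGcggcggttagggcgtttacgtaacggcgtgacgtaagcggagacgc
Prpf39, chr12:65036234-65036333, plus strand, higher in WAT-ILC2s: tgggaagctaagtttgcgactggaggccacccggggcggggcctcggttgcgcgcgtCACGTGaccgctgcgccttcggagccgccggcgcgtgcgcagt

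Snrpb2 and Srsf5 each hold 2 copies of the ETS core in these windows, Hnrnpc and Hnrnpa2b1 each hold a CCAAT box, and Prpf39 holds an E-box. Over the 250 bases before the start and on both strands, CCGGAAG was present in 17 of the 59 member promoters (28.8%). It was present in 15.2% of the 7980 promoters of tested genes and in 6.91% of all 32851 promoters. These sets are unlike, here and for the other motifs. Each member was counted with the RefSeq start nearest its annotated gene start, and the untested Prpf19, Snrpn and Srsf12 are included. The other sets count every distinct start of a gene. Of the member promoters, 45.8% held CCAAT, against 35.1% of those of tested genes and 33.8% of all. CACGTG was present in 8.47% of member promoters, 8.82% of those of tested genes and 6.02% of all. TATAAA, the TATA box core, was present in 8.47% of member promoters, 6.22% of those of tested genes and 12.4% of all. TGACGTCA, the cAMP response element, was present in 3.39%, 2.82% and 1.55%, and GCATGCGC, part of the NRF1 site, in 3.39%, 4.85% and 2.26%. The median GC content was 59.6% in member promoters, 60.0% in those of tested genes and 52.4% in all. The CCGGAAG core was found in 3 of the 11 promoters of members called higher in SI-ILC2s. It was in 0 of the 8 promoters of members called higher in WAT-ILC2s. CACGTG and TATAAA each had the opposite split, 0 of 11 against 2 of 8. CCAAT was in 5 of 11 and 3 of 8, and TGACGTCA and GCATGCGC were in 0 of both. These splits were not tested. These matches describe letters in a window and not bound sites.

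Among the SR proteins, Srsf5, Srsf11 and Srsf10 were higher in SI-ILC2s, and Srsf3 and Srsf1 were higher in WAT-ILC2s. That is 5 of 10 tested members, or 50%, near the 47.5% called over all tested genes, and the median difference of the family was -0.05. Srsf5, an SR protein that promotes exon inclusion (12:80945504-80950507 on GRCm38), was at 58.4 and 56.4 RPKM in SI-ILC2s versus 30.4 and 32.9 RPKM in WAT-ILC2s. Both SI-ILC2 libraries were well above both WAT-ILC2 libraries, with a ratio of means of 1.81 and a difference of 0.84 ± 0.14 (adjusted p = 0.00425). The transcript of Srsf5 has 1 near-identical pseudogene copy, Gm12966, with which the counting could have shared reads. Srsf11, a component linked to the U1 and U2AF contacts across splice sites, was at 26.6 and 27.5 RPKM against 18.4 and 17.4 RPKM. Srsf10, which represses splicing when dephosphorylated during heat shock and mitosis, was at 11.1 and 11.7 RPKM against 7.74 and 6.86 RPKM. In both genes the tissues were apart, by 0.57 ± 0.13 for Srsf11 (adjusted p = 0.0151) and 0.58 ± 0.14 for Srsf10 (adjusted p = 0.0169).

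Srsf3, the smallest SR protein and an adaptor for mRNA export, had the highest mean of the family over the 4 libraries, although Srsf2 was higher in both SI-ILC2 libraries. It was at 90.9 and 76.5 RPKM in SI-ILC2s versus 143.9 and 115.9 RPKM in WAT-ILC2s, a difference of -0.63 ± 0.18 (adjusted p = 0.031). The tissues did not overlap, although the libraries of each tissue also differed from each other. Srsf1, the founding SR protein, was at 8.27 and 8.82 RPKM against 12.2 and 11.9 RPKM, a difference of -0.45 ± 0.13 (adjusted p = 0.0332). These 2 calls were less firm than that of Srsf5. Srsf3 missed the threshold without SI-ILC2 replicate 1 (adjusted p = 0.0955), SI-ILC2 replicate 2 (0.224) or WAT-ILC2 replicate 1 (0.0741), and Srsf1 missed it whichever library was left out (0.066 to 0.211). Without SI-ILC2 replicate 1 or 2, Srsf5 was the only SR protein called, and Srsf10 was also lost without WAT-ILC2 replicate 2 (adjusted p = 0.051). Exons of the annotated antisense gene Gm11508 overlap Srsf1, and no source used here gives the strand setting of the counting. The remaining tested SR proteins were not called. Srsf2, which binds exonic enhancers, was at 97.8 and 83.5 RPKM against 129.98 and 95.2 RPKM, with overlapping tissues. Srsf7 had the highest adjusted p of the family, 0.898, at 38.4 and 33.5 RPKM against 38.9 and 34.3 RPKM. Srsf4, Srsf6 and Srsf9 had differences from -0.23 to 0.12.

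Shares of the summed SR protein level were also formed for Srsf3 and Srsf5. Srsf3 took 23.1% and 21.2% of the summed SR protein RPKM in SI-ILC2s, compared with 32.3% and 30.7% in WAT-ILC2s. Srsf5 took 14.8% and 15.6% in SI-ILC2s against 6.84% and 8.71% in WAT-ILC2s. Because shares are formed within a library, they do not depend on scaling between libraries.

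The hnRNPs held the most abundant members and the largest difference in favour of WAT-ILC2s. Of 20 tested genes, 2 were called higher in SI-ILC2s while 5 were called higher in WAT-ILC2s, with a median difference of -0.19. These are 10% and 25%, both below the 17.9% and 29.6% over all tested genes, and the median is near the -0.15 of all tested genes. Hnrnph3, a small member of the hnRNP H group, which binds G-rich runs (10:63014664-63024217), was at 3.32 and 2.76 RPKM in SI-ILC2s versus 10.97 and 10.3 RPKM in WAT-ILC2s. The tissues were far apart relative to their replicates. The mean was 3.50-fold higher in WAT-ILC2s, with a difference of -1.53 ± 0.15 (adjusted p = 0.000758). Exons of Hnrnph3 overlap those of Rufy2 on the opposite strand. Hnrnpll, a regulator known in T and B cells for exon skipping in CD45 (17:80029487-80062334), was at 1.98 and 1.87 RPKM against 5.28 and 4.62 RPKM. Its mean was 2.57-fold higher in WAT-ILC2s, with a difference of -1.02 ± 0.14 (adjusted p = 0.00253). No annotated gene overlaps its exons.

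Hnrnpa2b1, which binds RNA in trafficking granules and at exons, was at 46.5 and 49.8 RPKM in SI-ILC2s versus 73.6 and 90.8 RPKM in WAT-ILC2s. The difference was -0.75 ± 0.16 (adjusted p = 0.0115), and both WAT-ILC2 libraries were higher. Hnrnpm, which binds GU-rich RNA, was at 39.96 and 37.0 RPKM against 58.9 and 51.8 RPKM, with a difference of -0.51 ± 0.15 (adjusted p = 0.0301). Hnrnpdl, a relative of Hnrnpd, was at 46.9 and 40.9 RPKM against 62.4 and 61.9 RPKM, with a difference of -0.50 ± 0.15 (adjusted p = 0.0327). Neither gene overlapped between the tissues, and exons of March2 on the same strand overlap those of Hnrnpm. Hnrnpa2b1 missed the threshold without SI-ILC2 replicate 1 (adjusted p = 0.0961) or replicate 2 (0.0547), Hnrnpm without SI-ILC2 replicate 1, SI-ILC2 replicate 2 or WAT-ILC2 replicate 1 (0.113 to 0.203), and Hnrnpdl whichever library was left out (0.0575 to 0.261). Under median-ratio scaling Hnrnpm and Hnrnpdl, like Srsf1 and Srsf3, were not called (adjusted p from 0.117 to 0.158).

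In the other direction, Hnrnpc, which binds uridine tracts and keeps U2AF from cryptic sites, was at 148.5 and 137.6 RPKM in SI-ILC2s versus 84.4 and 70.7 RPKM in WAT-ILC2s. The mean was 1.85-fold higher in SI-ILC2s, with a difference of 0.88 ± 0.16 (adjusted p = 0.00653), and the lower SI-ILC2 library was well above the higher WAT-ILC2 library. Hnrnph2, an X-linked relative of Hnrnph1, was at 34.4 and 32.1 RPKM against 21.4 and 21.8 RPKM, with a difference of 0.60 ± 0.13 (adjusted p = 0.0129). Hnrnpc lost its call without SI-ILC2 replicate 1 (adjusted p = 0.0637), and Hnrnph2 without SI-ILC2 replicate 1 (0.123) or replicate 2 (0.0659). The hnRNP calls toward SI-ILC2s thus numbered 0 and 1 in those fits, and 4 without WAT-ILC2 replicate 1, where Hnrnpa0 and Hnrnpa1 were added. The calls toward WAT-ILC2s numbered 2 without SI-ILC2 replicate 1 and 3 without SI-ILC2 replicate 2.

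Hnrnph1 was the most abundant of all 68 members and was not called. It was at 265.5 and 278.3 RPKM in SI-ILC2s versus 338.6 and 337.9 RPKM in WAT-ILC2s, so both WAT-ILC2 libraries were higher, with a difference of -0.31 ± 0.17 (adjusted p = 0.16). Hnrnpa1, a repressor of exon inclusion, was at 252.6 and 207.5 RPKM against 181.5 and 125.5 RPKM, with a difference of 0.60 ± 0.23 (adjusted p = 0.0707). For Hnrnpa1 the tissues were apart but each replicate pair was spread, and 5 pseudogenes are near-identical to its transcript. Hnrnpk, a poly(C)-binding protein, was at 196.2 and 199.5 RPKM against 165.5 and 177.5 RPKM (adjusted p = 0.311). Hnrnpf, which shares its G-run binding with Hnrnph1, was at 72.2 and 68.1 RPKM against 65.1 and 70.9 RPKM, with overlapping tissues and a difference of 0.05 ± 0.14 (adjusted p = 0.813). Hnrnpa0, Hnrnpa3, Hnrnpab, Hnrnpd, Hnrnpl, Hnrnpr, Hnrnpu, Hnrnpul1 and Hnrnpul2 were not called, with differences from -0.79 for Hnrnpl to 0.27 for Hnrnpab.

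Ratios between related members within a library compared the families' balance without any scaling between libraries. The 10 pairs were chosen after their values were seen, so no test is given, and the ratios of 6 pairs did not overlap between the tissues. Non-overlap is common in these libraries, since over all tested genes 29.8% had higher levels in both SI-ILC2 libraries and 45.9% in both WAT-ILC2 libraries, so the count is no result about the pairs. Hnrnph2 to Hnrnph1 was 0.130 and 0.115 in SI-ILC2s against 0.0633 and 0.0646 in WAT-ILC2s. Hnrnph3 to Hnrnph1 went the other way, at 0.0125 and 0.00990 against 0.0324 and 0.0304. Relative to Hnrnph1, these 2 members of the H group thus stood on opposite sides of the tissue comparison. Hnrnpa1 to Hnrnpa2b1 was 5.43 and 4.17 in SI-ILC2s against 2.47 and 1.38. Srsf5 to Srsf6 was 1.503 and 1.48 against 0.839 and 0.954, and Srsf7 to Srsf3 was 0.422 and 0.438 against 0.270 and 0.296. In both SR pairs the first-named gene was relatively more abundant in SI-ILC2s. Srsf9 to Srsf1 was 1.81 and 1.596 against 1.44 and 1.43. The ratios of Hnrnpll to Hnrnpl, Hnrnpdl to Hnrnpd, Hnrnpul2 to Hnrnpul1 and U2af2 to U2af1 overlapped between the tissues.

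**Figure D3:**
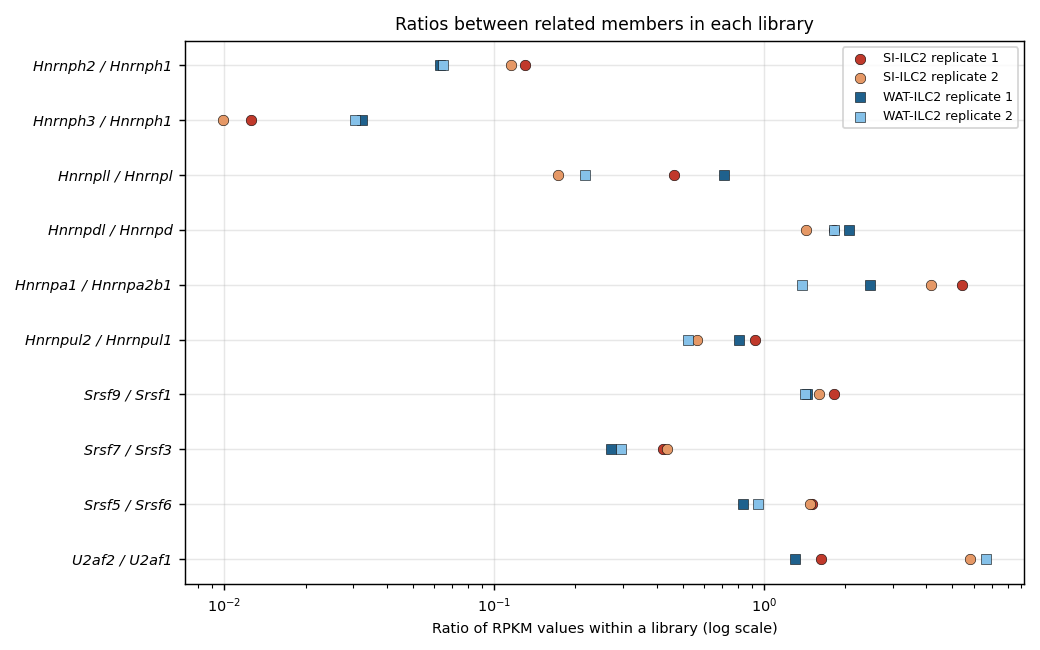
Ratio of the RPKM values of 10 pairs of related members within each library, on a log axis, with circles for SI-ILC2s and squares for WAT-ILC2s. The tissues are separate in 6 pairs; U2af2 to U2af1 differs between replicates instead, at 1.63 and 5.81 for SI-ILC2s and 1.30 and 6.67 for WAT-ILC2s.

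Among the Snrp genes, all 4 calls were for higher levels in SI-ILC2s, with 11 genes tested and a median difference of 0.39. By direction these are 36.4% and 0%, against 17.9% and 29.6% over all tested genes, where the median was -0.15. Snrpd1 encodes Sm D1, a subunit of the Sm ring (18:10617775-10642079). It was at 6.26 and 5.54 RPKM in SI-ILC2s versus 1.91 and 1.34 RPKM in WAT-ILC2s. This was the largest difference of any tested member toward SI-ILC2s, 3.62-fold on the means and 1.40 ± 0.17 on the log2 scale (adjusted p = 0.00149). Snrpd3, another ring subunit, was at 1.48 and 2.14 RPKM against 0.420 and 0.940 RPKM. It passed the filter only through the SI-ILC2 libraries, and when genes of all levels were tested its difference of 0.75 did not pass (adjusted p = 0.0531). Its exons overlap those of Gucd1 on the opposite strand.

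The U2-specific proteins also differed. Snrpb2, the U2 B″ protein that binds a stem loop of U2 snRNA, was at 3.71 and 3.28 RPKM in SI-ILC2s versus 1.52 and 1.09 RPKM in WAT-ILC2s. The mean was 2.67-fold higher in SI-ILC2s, with a difference of 0.97 ± 0.16 (adjusted p = 0.00405). Its partner Snrpa1, U2 A′, was at 7.01 and 5.92 RPKM against 3.17 and 3.79 RPKM, with a difference of 0.74 ± 0.16 (adjusted p = 0.0111). For both partners the lower SI-ILC2 library exceeded the higher WAT-ILC2 library, but the call of Snrpa1 was lost without SI-ILC2 replicate 1 (adjusted p = 0.0733), and exons of Gm45213 on the same strand overlap it. Of the U1 proteins, Snrpa was at 9.90 and 9.10 RPKM against 6.97 and 7.06 RPKM (adjusted p = 0.0551). Snrpc was at 5.37 and 5.82 RPKM against 6.01 and 6.39 RPKM (adjusted p = 0.482). Neither U1 protein was called, but Snrpa was called under median-ratio scaling (adjusted p = 0.0189), quantile normalization (0.0315) and a filter of 5 RPKM (0.0481).

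The remaining Sm ring genes were not called. Snrpb, the most abundant of them, was at 88.9 and 77.0 RPKM in SI-ILC2s versus 75.8 and 55.3 RPKM in WAT-ILC2s (adjusted p = 0.183). Snrpd2, Snrpe, Snrpf and Snrpg had differences from 0.12 to 0.64. All 4 were lower in replicate 2 than in replicate 1 of both tissues, most in WAT-ILC2s. Snrpf went from 7.67 RPKM in WAT-ILC2 replicate 1 to 3.07 RPKM in replicate 2, and from 6.74 to 4.78 RPKM in SI-ILC2s. The count of Snrp genes called higher in SI-ILC2s therefore moved from 4 to 9 without WAT-ILC2 replicate 1, the added genes being Snrpb, Snrpd2, Snrpe, Snrpf and Snrpg. It was 2 without SI-ILC2 replicate 1, 3 without SI-ILC2 replicate 2 and 4 without WAT-ILC2 replicate 2. In limma 0 Snrp genes were called higher in WAT-ILC2s, in the main fit and every other setting tried with all 4 libraries. Toward WAT-ILC2s 0 had an unadjusted p below 0.05, against 5 toward SI-ILC2s. Over all 8230 tested genes these counts were 2835 and 1777.

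U2AF is a dimer of a large and a small subunit. Of 3 tested U2AF genes, 1 was called, or 33.3%, against 47.5% of all tested genes. U2af1, the small subunit that reads the AG at the intron end, was at 2.03 and 2.28 RPKM in SI-ILC2s versus 1.48 and 1.32 RPKM in WAT-ILC2s. The difference of 0.39 ± 0.13 passed narrowly (adjusted p = 0.0496). It was lost whichever library was left out (adjusted p from 0.0916 to 0.209), and 2 pseudogene copies are near-identical to its transcript. U2af1l4, a related small subunit, was at 3.68 and 3.86 RPKM against 4.80 and 6.86 RPKM, with a difference of -0.50 ± 0.18 (adjusted p = 0.0632). It alone of the 3 had an unadjusted p below 0.05 toward WAT-ILC2s, and 0 were called in that direction, though U2af1l4 was called without WAT-ILC2 replicate 1. Without WAT-ILC2 replicate 2, U2af2 was called toward SI-ILC2s. The large subunit U2af2, which binds the polypyrimidine tract, was at 3.29 and 13.2 RPKM in SI-ILC2s versus 1.92 and 8.83 RPKM in WAT-ILC2s. Replicate 2 was 4.02-fold above replicate 1 in SI-ILC2s and 4.59-fold above it in WAT-ILC2s, so the tissues overlapped, with a difference of 0.54 ± 0.70 (adjusted p = 0.548).

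U2af2 had company in this pattern, which was noticed after the values were seen. Hnrnpl, which binds CA repeats, was at 4.27 and 10.9 RPKM in SI-ILC2s versus 7.40 and 21.3 RPKM in WAT-ILC2s. Sf3a2 was at 9.32 and 15.8 RPKM against 5.11 and 12.7 RPKM. In these 3 genes replicate 2 was higher in both tissues. Sf3b6, which contacts the branch point adenosine, was lower in replicate 2, at 7.52 and 4.19 RPKM against 4.89 and 2.74 RPKM. The median absolute log2 difference between replicates was 0.12 in SI-ILC2s and 0.20 in WAT-ILC2s for the members, against 0.16 and 0.19 for all tested genes. A replicate difference over 0.5 was found for 7.69% of the members in SI-ILC2s and 18.5% in WAT-ILC2s, against 5.99% and 9.66% of all tested genes. What the replicate numbers share is not given in the labels.

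SF3a and SF3b form the core of the U2 snRNP that holds the branch point. Only Sf3b4 was called among the 9 subunits, all of which were tested, with a family median of 0.36. In limma 0 subunits were called higher in WAT-ILC2s, and 0 had an unadjusted p below 0.05 in that direction. The shares called toward SI-ILC2s and WAT-ILC2s are 11.1% and 0%, both below the 17.9% and 29.6% over all tested genes. Sf3b4, the subunit that binds RNA upstream of the branch point (3:96172332-96177564), was at 25.9 and 32.0 RPKM in SI-ILC2s versus 12.4 and 14.4 RPKM in WAT-ILC2s. The mean was 2.16-fold higher in SI-ILC2s, with a difference of 1.05 ± 0.16 (adjusted p = 0.0036) and no overlap. Exons of Gm17690 on the opposite strand overlap Sf3b4, and 1 pseudogene copy, Gm7935, is near-identical. Sf3b1, the largest SF3b subunit and the most abundant of the family, was at 65.2 and 70.0 RPKM against 78.8 and 92.8 RPKM, with a difference of -0.34 ± 0.16 (adjusted p = 0.121). Both WAT-ILC2 libraries of Sf3b1 were higher, opposite to Sf3b4, but the difference did not pass. Sf3a1, Sf3a2, Sf3a3, Sf3b2, Sf3b3, Sf3b5 and Sf3b6 were not called, with differences from -0.15 for Sf3b2 to 0.53 for Sf3a2. Without WAT-ILC2 replicate 2 there were 4 calls, with Sf3a2, Sf3a3 and Sf3b3 added, and without WAT-ILC2 replicate 1 there were 2, with Sf3b6 added. Median-ratio scaling gave 3, with Sf3a1 and Sf3a3 added.

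Of the 12 tested PRPF genes, 3 were called higher in SI-ILC2s while 2 were called higher in WAT-ILC2s, with a median of -0.03. These are 25% and 16.7%, against 17.9% and 29.6% over all tested genes. In both directions together 41.7% were called, below the 47.5% over all tested genes. Prpf3 and Prpf4 encode partners in the U4/U6 snRNP. Prpf3 was at 5.30 and 5.31 RPKM in SI-ILC2s versus 2.97 and 2.97 RPKM in WAT-ILC2s, a 1.79-fold ratio of means and a difference of 0.67 ± 0.14 (adjusted p = 0.00918). Prpf4 was at 7.10 and 6.91 RPKM against 4.73 and 3.57 RPKM, with a difference of 0.65 ± 0.16 (adjusted p = 0.0195). Both partners were thus higher in SI-ILC2s by about the same amount. Prpf18, a factor of the second catalytic step, was at 7.12 and 6.79 RPKM against 4.34 and 5.34 RPKM, with a difference of 0.45 ± 0.15 (adjusted p = 0.0494). Prpf3 missed the threshold without SI-ILC2 replicate 1 (adjusted p = 0.0531), Prpf4 without SI-ILC2 replicate 1 (0.0879), SI-ILC2 replicate 2 (0.0653) or WAT-ILC2 replicate 2 (0.0598), and Prpf18 without SI-ILC2 replicate 1, SI-ILC2 replicate 2 or WAT-ILC2 replicate 1 (0.145 to 0.214).

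Prpf40b and Prpf39, both relatives of yeast U1 snRNP proteins, were higher in WAT-ILC2s. Prpf40b was low, at 0.629 and 0.508 RPKM in SI-ILC2s versus 1.22 and 1.93 RPKM in WAT-ILC2s. Its mean was 2.77-fold higher in WAT-ILC2s. It passed the filter only through the WAT-ILC2 libraries, and when genes of all levels were tested its difference of -0.70 had an adjusted p of 0.0419. Prpf39 was at 6.29 and 5.98 RPKM against 8.82 and 8.65 RPKM, with a difference of -0.45 ± 0.13 (adjusted p = 0.034). The tissues were apart in both genes, but the call of Prpf39 was lost whichever library was left out (adjusted p from 0.0731 to 0.182) and its exons overlap Fkbp3 on the opposite strand. Prpf38b, a tri-snRNP-associated factor and the most abundant PRPF gene, was at 20.98 and 24.1 RPKM against 20.8 and 20.5 RPKM, with a difference of 0.12 ± 0.14 (adjusted p = 0.516). Prpf8, the scaffold at the catalytic centre, was at 8.04 and 11.5 RPKM against 9.45 and 12.9 RPKM. Its level was higher in replicate 2 of both tissues and, within each replicate number, higher in WAT-ILC2s. The tissues overlapped, with a difference of -0.18 ± 0.22 (adjusted p = 0.516). Prpf4b, Prpf6, Prpf31 and Prpf38a were also not called, with differences from -0.29 for Prpf4b to 0.24 for Prpf31.

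The spliceosome and its regulators hold many more proteins, and 160 further genes in 7 lists by role were set beside the families. Of the 148 tested, 40 were called higher in SI-ILC2s while 18 were called higher in WAT-ILC2s, which is 39.2% called against 47.5% of all tested genes. By direction these are 27.0% and 12.2%, against 17.9% and 29.6% over all tested genes. The median difference was 0.19. The lists were compiled by role, and their counts describe them without a test of the list.

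The list of the SMN complex and Sm core assembly holds 15 genes for loading the Sm ring and for moving snRNA in and out of the nucleus. In it, 7 of 10 tested genes were called higher in SI-ILC2s while 1 was called higher in WAT-ILC2s, with a median of 0.70, against 17.9% and 29.6% over all tested genes. The 5 other genes were below the filter. The first count was 7 without WAT-ILC2 replicate 1 and 5 without each of the other libraries. Smn1, the protein that loads Sm rings onto snRNA, was at 12.1 and 11.6 RPKM in SI-ILC2s versus 2.97 and 2.63 RPKM in WAT-ILC2s, a difference of 1.76 ± 0.14 (adjusted p = 0.000476). Ddx20, the helicase of that complex, was at 5.68 and 7.61 RPKM against 2.08 and 2.62 RPKM, and Phax, an snRNA export adaptor, at 9.77 and 9.23 RPKM against 3.72 and 3.85 RPKM. Gemin2 and Prmt5 were not called, at -0.34 (adjusted p = 0.0533) and -0.17. Snupn, which carries capped snRNPs into the nucleus, was called toward WAT-ILC2s, at 1.22 and 0.927 RPKM against 2.78 and 2.17 RPKM (difference -0.74 ± 0.16, adjusted p = 0.00996).

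Among 21 tested factors of the PRP19 complex and the catalytic steps, 10 were called higher in SI-ILC2s while 1 was called higher in WAT-ILC2s, with a median of 0.47. These counts are 47.6% and 4.76%, against 17.9% and 29.6% over all tested genes. In both directions together 52.4% were called, near the 47.5% over all tested genes. Without SI-ILC2 replicate 1 the first count was 6. Slu7, which acts in the second step with Prpf18, was at 28.3 and 21.4 RPKM in SI-ILC2s versus 10.5 and 8.73 RPKM in WAT-ILC2s (difference 1.28 ± 0.18, adjusted p = 0.0027). Isy1, a protein of the catalytic spliceosome, was at 140.0 and 146.9 RPKM against 72.7 and 79.4 RPKM, and the helicase Dhx8 at 4.62 and 4.69 RPKM against 1.46 and 2.80 RPKM. The gene higher in WAT-ILC2s was Ctnnbl1, at 12.7 and 11.8 RPKM against 21.5 and 23.5 RPKM.

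Of 27 tested snRNP proteins outside the families, 8 (29.6%) were called higher in SI-ILC2s while 2 (7.41%) were called higher in WAT-ILC2s. The median was -0.01, and the shares over all tested genes were 17.9% and 29.6%. The first count fell to 4 without SI-ILC2 replicate 1 or WAT-ILC2 replicate 2 and to 2 without SI-ILC2 replicate 2, and it was 2 with equal column sums and 3 with no filter. Phf5a, which sits against Sf3b1 in SF3b, was at 19.2 and 19.4 RPKM in SI-ILC2s versus 8.71 and 8.72 RPKM in WAT-ILC2s (difference 1.06 ± 0.13, adjusted p = 0.00164). Phf5a and Sf3b4 were thus both higher in SI-ILC2s while Sf3b1, in the same complex, was not called. Luc7l2 and Luc7l3, related U1-associated proteins, were called in opposite directions. Luc7l2 was at 8.61 and 10.6 RPKM against 4.89 and 5.94 RPKM, and Luc7l3 at 3.25 and 4.14 RPKM against 7.59 and 7.30 RPKM. Lsm3, of the U6 ring, was called higher in SI-ILC2s by 0.78, and the helicase Ddx46 higher in WAT-ILC2s by a difference of -0.61. In the minor spliceosome, which removes a rare intron class, 3 of 8 tested genes (37.5%) were called higher in SI-ILC2s. They were Zrsr1, Rnpc3 and Snrnp48, by 0.43 to 0.83. A further 2 (25%) were called higher in WAT-ILC2s, namely Zmat5 and Snrnp25, at -0.85 and -0.53. Under median-ratio scaling these counts were 5 and 0, without SI-ILC2 replicate 1 they were 0 and 1, and without SI-ILC2 replicate 2 they were 1 and 0.

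SR proteins are governed by kinases and share partners with SR-like domains. Of 27 such genes, 5 were called higher in SI-ILC2s while 4 were called higher in WAT-ILC2s. These are 18.5% and 14.8%, against 17.9% and 29.6% over all tested genes. Clk1, a nuclear SR protein kinase, was at 79.7 and 74.7 RPKM in SI-ILC2s versus 177.1 and 143.0 RPKM in WAT-ILC2s (difference -1.03 ± 0.17, adjusted p = 0.00426). Srpk2, a cytoplasmic SR protein kinase, was at 1.29 and 1.26 RPKM against 2.97 and 2.79 RPKM, and Pnn, an exon junction partner, at 10.7 and 11.2 RPKM against 22.9 and 27.7 RPKM. Clk2 was also called toward WAT-ILC2s, at 4.18 and 3.83 RPKM in SI-ILC2s versus 5.99 and 5.46 RPKM in WAT-ILC2s (adjusted p = 0.0476). Not every SR protein kinase had this direction. Clk3, at 19.7 and 17.2 RPKM versus 14.0 and 12.7 RPKM in WAT-ILC2s, was called toward SI-ILC2s (adjusted p = 0.048), while Clk4 and Srpk1, at 0.05 and -0.15, were not called. Tra2b, Rnps1 and Scaf8 were called higher in SI-ILC2s by 0.56 to 0.79. The SI-ILC2 count was 1 without SI-ILC2 replicate 1, 0 without SI-ILC2 replicate 2, 2 without WAT-ILC2 replicate 2 and 1 with equal column sums. Among 18 tested genes of the exon junction complex and nonsense-mediated decay, 3 (Smg8, Smg5 and Eif4a3) were called higher in SI-ILC2s. The 2 called higher in WAT-ILC2s were Ncbp2 at -0.52 and Ddx39 at -0.47. These shares, 16.7% and 11.1%, are below the 17.9% and 29.6% over all tested genes. Smg8, a regulator of the decay kinase SMG1, was at 5.38 and 7.02 RPKM against 1.30 and 1.77 RPKM, and Eif4a3, the helicase that anchors the exon junction complex, differed by 0.73 and Smg5 by 0.79. Both calls for WAT-ILC2s were lost without SI-ILC2 replicate 1 or 2 and under median-ratio scaling.

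Other RNA-binding regulators included Cirbp and Rbm3. Cirbp, a cold-inducible RNA-binding protein, was at 34.4 and 33.4 RPKM in SI-ILC2s versus 9.12 and 9.42 RPKM in WAT-ILC2s, a difference of 1.77 ± 0.13 (adjusted p = 0.000394). Rbm3, a relative that is also induced by cold, was at 122.9 and 114.3 RPKM against 69.8 and 57.8 RPKM. Both were higher in SI-ILC2s, as was Mbnl3 by 0.91. Fubp1, Celf1 and Tia1 were higher in WAT-ILC2s, at -0.95, -0.78 and -0.77. In all, 4 of 37 tested genes (10.8%) were called higher in SI-ILC2s while 6 (16.2%) were called higher in WAT-ILC2s. Both shares are below the 17.9% and 29.6% over all tested genes, and the median was 0.03. Equal column sums gave 3 and 11, leaving out SI-ILC2 replicate 1 gave 2 and 3, and median-ratio scaling gave 8 and 5.

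**Figure D4:**
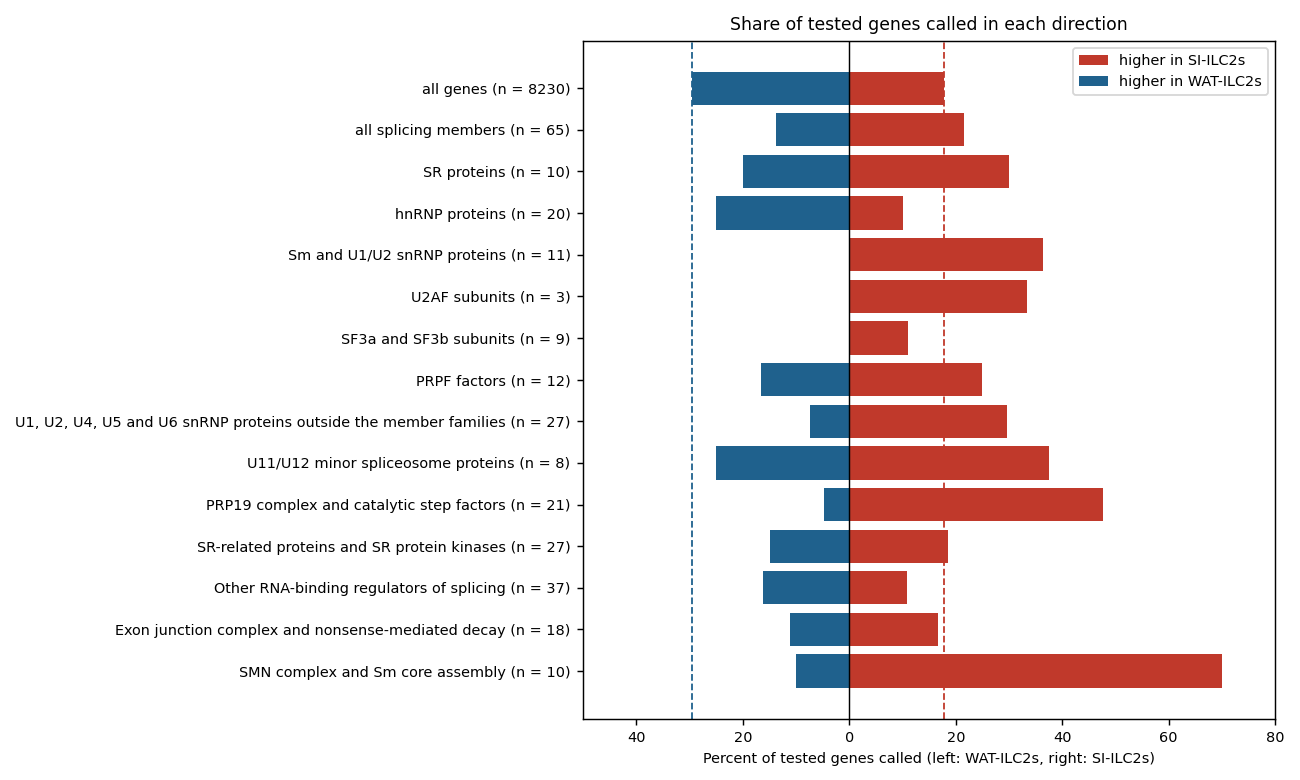
Percent of tested genes called higher in WAT-ILC2s (bars to the left) and in SI-ILC2s (bars to the right) for all genes, all splicing members, the 6 families and the 7 related lists, with n the number of genes tested. Dashed lines mark the shares over all tested genes, 29.6% and 17.9%. The SMN list reaches 70.0% on the right, and the Snrp, SF3 and U2AF families have no bar on the left.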

How the data were processed

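Total RNA of sorted ILC2s was sequenced in 4 libraries, 2 per tissue, grouped by the labels. The authors deposited RPKM values per gene. Reads were handled with STAR 2.6.0 and featureCounts 1.6.0 on GRCm38, per the submitters' processing notes, while the annotation and strand setting were not named in any source used here. No counts were used. No value column was left unmapped (0 unused). Depth was estimated from the step between low values, with 78.6% to 80.6% of values within 0.1 of a whole read.

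Genes that reached 1 RPKM in 2 or more libraries were tested on log2(RPKM + 1) with limma 3.58.1 in R 4.3.3 (variance trend, two-sided, Benjamini-Hochberg adjustment over all 8230 genes, threshold 0.05). The prior added 4.39 degrees of freedom to 2 residual ones; an exact permutation of 2 against 2 libraries could not pass. The script was tested on simulated data. Gene positions, overlapping exons and near-identical copies (95% identity over at least 50% of the transcript, blastn 2.17.0) came from GENCODE M21 on GRCm38, where all 68 members matched; 7 had such copies, 7 overlapped exons on the same strand and 23 on the opposite strand.

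The members and lists were chosen with earlier results of these data known. Named with values are, per family, up to 6 called members in each direction, the most abundant member, and uncalled members with an adjusted p above 0.5 and a mean of at least 50 RPKM, and per related list up to 3 called genes in each direction. Srsf2, Srsf7, Hnrnpa1, Hnrnpk, Hnrnpl, Snrpa, Snrpc, Snrpf, U2af1l4, U2af2, Sf3a2, Sf3b6, Prpf8, Clk2, Clk3, Clk4, Srpk1, Gemin2 and Prmt5 were added after their values were seen. Alternatives covered the pseudocount, the filter, the scaling, the variance model, a replicate block and leaving out each library. Counts cover all members, of which 1 is not reported here by name or shown in the figures.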

Additional observations from a re-analysis of the deposited data

How the results depend on the processing

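Over the alternatives, no called member changed direction, and 6 of the 23 called members kept their call in every one in which they were tested (Hnrnph3, Hnrnpll, Sf3b4, Snrpb2, Snrpd1 and Srsf5), leaving aside Prpf40b, which could not be tested without either WAT-ILC2 library. Leaving out 1 library gave 4 to 20 members called higher in SI-ILC2s, 3 to 5 called higher in WAT-ILC2s and a median difference of 0.08 to 0.13; the cause was not tested beyond the smaller number of samples. Members called higher in WAT-ILC2s numbered 4 with no filter, where 21851 genes were tested, and 4 with median-ratio scaling. The median difference of the members was 0.31 with median-ratio scaling, 0.22 with quantile normalization and -0.01 with equal column sums, against all-gene medians of 0.0, -0.02 and -0.26. Of all calls, 51.8%, 48.4% and 28.0% were then for SI-ILC2s.

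The replicate block gave 26 members called higher in SI-ILC2s and 19 called higher in WAT-ILC2s, with 22 calls gained and 0 lost; among SF3 subunits it called 6 toward SI-ILC2s and Sf3b1 toward WAT-ILC2s. The labels do not say what a replicate number shares, so it was not treated as a pairing. The differences between replicates 2 and 1 were correlated between the tissues across the 65 tested members (Pearson 0.85, Spearman 0.74) and across all 8230 genes (0.57 and 0.56), and 48 of the 65 members had the same direction in both tissues.

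Uncalled members changed sign under some settings. Equal column sums gave -0.11 for Hnrnpf, -0.05 for Hnrnpul1, -0.03 for Prpf38b, -0.04 for Sf3b5, -0.01 for Snrpg and -0.03 for Srsf6. Median-ratio scaling gave 0.0 for Prpf38a, 0.03 for Sf3b2, 0.04 for Snrpc, 0.09 for Srsf4 and 0.16 for Srsf7, and quantile normalization gave -0.03 for Hnrnpf and 0.0 for Srsf4. Leaving out 1 library gave ranges of -0.28 to 0.65 for Hnrnpa0, -0.39 to 0.04 for Hnrnpa3, -0.02 to 0.11 for Hnrnpf, -0.19 to 0.33 for Hnrnpul1, -0.41 to 0.05 for Prpf8, -0.06 to 1.11 for Sf3a2, -0.04 to 0.04 for Sf3b5, -0.17 to 0.58 for Snrpd2, -0.37 to 0.72 for Snrpf, -0.28 to 0.51 for Snrpg, -0.27 to 0.11 for Srsf4, -0.12 to 0.07 for Srsf7 and -0.33 to 1.42 for U2af2.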
